A study of Mus musculus with 8 samples.

Results

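The heparan sulfate sulfatases, syndecans and glypicans are described here as 10 genes of 15653 named on the arrays: Sulf1, Sulf2, Sdc1, Sdc2, Sdc3, Sdc4, Gpc1, Gpc3, Gpc4 and Gpc6. Members were found by matching each probe set's RefSeq transcript to these symbols, which gave 11 entries of the table, and the 2 entries of Gpc6 had identical values and were counted once. The family was selected on measured values: it was proposed with the values of these arrays known, foremost those of Sulf2 in Ind-8 against Con-3 and against tI-3, and Sulf2, Sulf1 and Gpc6 also stand on the study's own list of genes selected on these arrays. The members' values are therefore a description. Members past the threshold of the fit over all probe sets are counted below beside the share of all probe sets, and nothing is supported by those counts. All 10 members had a mean above the 25th percentile of the probe sets, a log2 level of 4.30, so that no member was lost to a filter on low values.

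The study asked which genes follow the pattern of self-renewal of mouse fibroblasts, asymmetric or symmetric, rather than p53 alone. RNA of 8 separate cultures was hybridized to Affymetrix arrays, 3 of Ind-8, 3 of Con-3 and 2 of tI-3, and the small number of arrays limits the precision. All 3 lines descend from p53-null fetal fibroblasts and were grown for 48 h with 65 µM ZnCl2 and 5 µg/ml puromycin. Ind-8 carries a mouse p53 cDNA behind a metallothionein promoter that zinc turns on, and its cultures are the asymmetric state. Con-3 expresses no p53 and is a symmetric state. By the methods it is a line with the empty vector, and by the labels it is the congenic parent of Ind-8. The tI-3 line was derived from Ind-8 and also carries a cDNA of IMPDH II, the rate-limiting enzyme of guanine nucleotide synthesis, that p53 does not regulate, so that it is symmetric with p53. Its medium also held G418. Each state is 1 cloned line, so differences between states and differences between clones cannot be told apart.

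Heparan sulfate is a chain of alternating sugars that is built in the Golgi on a few core proteins and sulfated at chosen positions. Syndecans are core proteins that cross the plasma membrane, and glypicans are held on the outer face of the membrane by a lipid anchor. The sulfated chains bind growth factors, morphogens and matrix proteins, among them fibroblast growth factors, Wnt proteins and fibronectin. Sulf1 and Sulf2 are secreted enzymes that remove 6-O-sulfate groups from finished chains outside the cell, and this changes which ligands the chains bind.

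Ahead of the members, 3 arrays stood apart. The mean log2 level of the 14 hybridization-control probe sets, which read RNA added in equal amounts to every array, was 9.04, 8.98 and 9.03 on the Ind-8 arrays and 9.05, 9.16 and 9.62 on the Con-3 arrays. It was 9.43 and 9.71 on the tI-3 arrays. Con-3 replicate 3 and both tI-3 arrays thus lay above the midpoint of 9.35, and the other 5 lay under it. Con-3 replicate 3 also had an 18S ribosomal RNA level of 10.97 at the 5′ probe set, against 4.55 to 5.25 on the other 7 arrays. The 3′ minus 5′ log2 level of beta-actin, a sign of RNA integrity, was 0.14 to 0.19 on the Ind-8 arrays, 0.11 to 0.14 on the Con-3 arrays, and 0.058 and 0.070 on the tI-3 arrays, where it was lowest. For Gapdh it was -0.21 to -0.11 over all arrays and did not separate the lines. The part of RNA integrity in the levels of Sdc2, Sdc4, Gpc4 and Gpc6, which were also lowest in tI-3, was not tested. With the level of these controls as a block, Ind-8 and tI-3 share no level, and limma then kept 9 of 37 calls of named pathway and label genes in Ind-8 against tI-3, 24 of 33 in Ind-8 against Con-3 and 25 of 39 in tI-3 against Con-3. Those 9 were Hs2st1, Ndst1, Papss2, Mmp2, Tiam1, Fgfr1, Dse, Vcan and Cdkn1a. The other 28 of the 37 calls ended with that block. Here and below, an ended call does not show that the difference became smaller, since this block can also lower the precision. The part of the control level in these 28 differences was not tested. Profiles of arrays of the same line had a Pearson's r over all probe sets of 0.994 to 0.996 in 7 pairs, against 0.978 to 0.989 in 21 pairs of different lines.

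The labels were checked on the genes the lines were built with. Trp53, which encodes p53, had log2 levels of 5.68, 5.87 and 5.80 in Ind-8, 5.21, 5.29 and 5.27 in Con-3, and 5.60 and 5.69 in tI-3. All arrays of both lines with the p53 cDNA lay above all Con-3 arrays. Con-3 expresses no p53, so its Trp53 level may be background, and the differences from Con-3 are read as lower bounds. Trp53 was higher in Ind-8 than in Con-3 by 0.53 ± 0.09 (SE, adjusted p = 0.0019, limma) and higher in tI-3 than in Con-3 by 0.39 ± 0.10 (adjusted p = 0.014, limma). The second call ended without tI-3 replicate 2 (adjusted p = 0.109), and it also ended once that block was in the fit (0.101). Impdh2, which encodes IMPDH II, had means of 12.19 in Ind-8, 12.53 in Con-3 and 12.36 in tI-3, and it was lower in Ind-8 than in Con-3 (log2 difference -0.34, adjusted p = 0.011, limma). Its Ind-8 against tI-3 difference of -0.17 was not called (adjusted p = 0.16, limma). The study states that IMPDH II expression is higher in tI-3 than in Con-3. Here the tI-3 minus Con-3 difference of Impdh2 was -0.17 and not called (adjusted p = 0.18, limma). Impdh2 thus did not mark tI-3 in either comparison. Whether the Impdh2 probe set reads the transcript of the added cDNA is not known. Cdkn1a, a cell cycle inhibitor and p53 target, had means of 9.66 in Ind-8, 5.86 in Con-3 and 7.44 in tI-3.

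The sulfatases differed most between the lines among the 10 genes, and the 2 enzymes differed in their order of lines. Sulf2 had log2 levels of 9.06, 9.71 and 9.21 on the Ind-8 arrays, 5.25, 5.40 and 5.66 on the Con-3 arrays, and 7.25 and 6.96 on the tI-3 arrays. Each Ind-8 array was above each tI-3 array, and each tI-3 array above each Con-3 array, so that no neighbours in this order overlapped. Ind-8 was higher than Con-3 by a measured 3.89 (SE 0.17, from the limma fit over all 22523 probe sets). The Ind-8 level was higher than that of tI-3 by 2.22 ± 0.19, or 4.67-fold, and tI-3 was higher than Con-3 by a measured 1.67 (SE 0.19). The Con-3 values lay under the median probe set level of 6.17. By the authors' detection calls, which were not analysed here, Sulf2 was absent in Con-3, so its level there may be background, and its differences from Con-3 are read as lower bounds. Without Con-3 replicate 3, the array that stood apart in its 18S level, both differences from Con-3 moved by 0.11, to 1.78 for tI-3. Within the arrays with high hybridization controls, Con-3 replicate 3 and both tI-3 arrays, the tI-3 level was the higher by 1.44.

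Sulf1 set both lines that carry the p53 cDNA apart from Con-3. Its log2 levels were 8.44, 8.70 and 9.20 on the Ind-8 arrays, 5.78, 6.32 and 6.28 on the Con-3 arrays, and 8.78 and 8.99 on the tI-3 arrays. Both tI-3 values fell inside the range of the Ind-8 values, and every value of these 2 lines was above every Con-3 value. The means were 8.78 ± 0.39 (SD, n = 3) in Ind-8, 6.13 ± 0.30 (SD, n = 3) in Con-3 and 8.89 ± 0.15 (SD, n = 2) in tI-3. Ind-8 was higher than Con-3 by 2.65 ± 0.20 (SE), or 6.29-fold, and tI-3 was higher than Con-3 by 2.76 ± 0.22, or 6.77-fold. The Ind-8 minus tI-3 difference was -0.11 ± 0.22, within the spread of the arrays, and its sign turned under 2 of 16 alternative settings. Without Con-3 replicate 3, the Ind-8 minus Con-3 difference was 2.73. Sulf1 in tI-3 was 2.61 above Con-3 within the arrays with high hybridization controls.

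**Figure D1:**
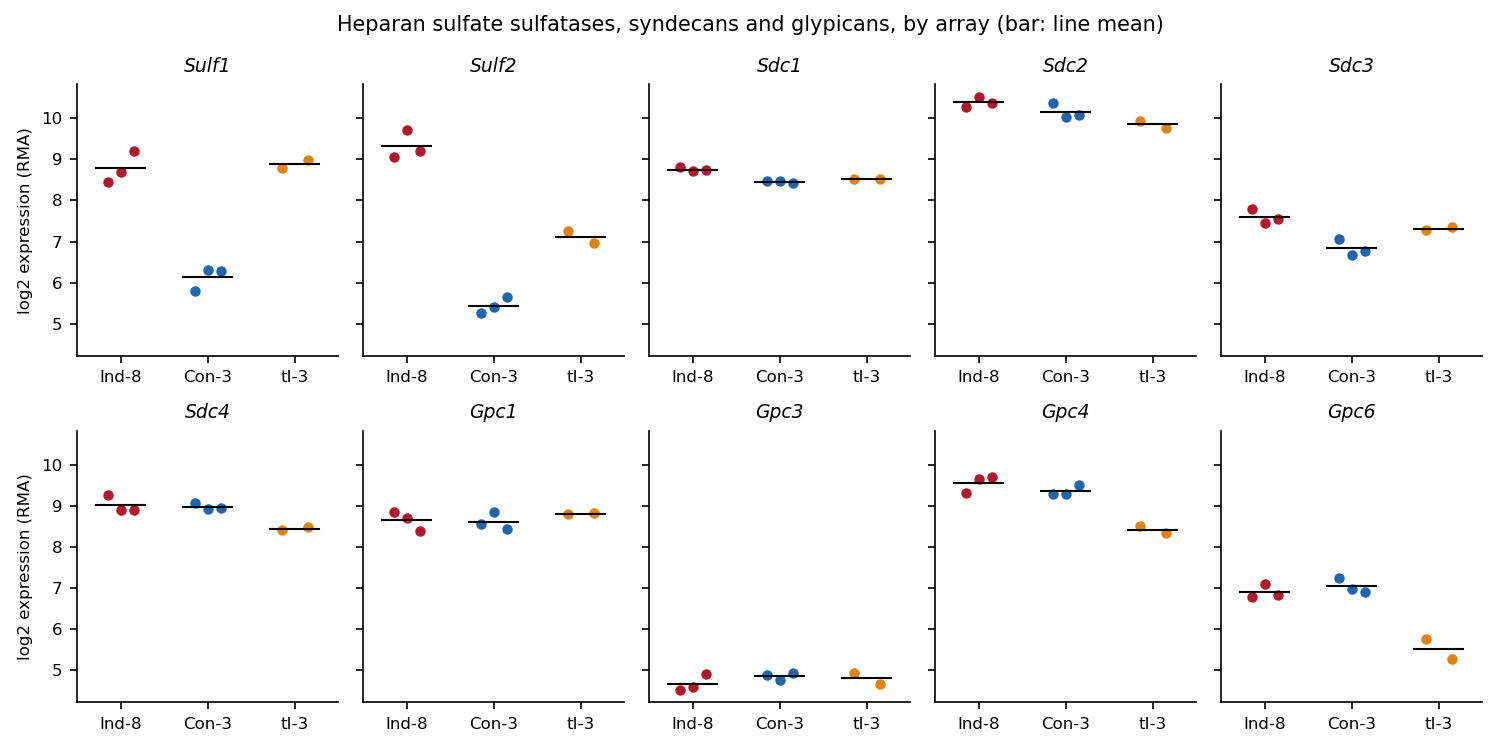
Log2 expression (RMA) of each of the 10 genes on each array, by line, with a bar at the line mean and 1 vertical scale for all panels. Sulf2 steps down from Ind-8 over tI-3 to Con-3, Sulf1 is low in Con-3, and Sdc2, Sdc4, Gpc4 and Gpc6 are lowest in tI-3.

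Promoter windows were held for 6 of the 10 members, 7 windows in all, as RefSeq gives them on GRCm38.p6. The 250 bases before the transcription start are shown for Sulf2, with its 2 starts, and for Sdc4 and Gpc4, both low in tI-3. The Sulf2 windows lie at chr2:166155286-166155535 and chr2:166155684-166155933 (minus strand), that of Sdc4 at chr2:164443189-164443438 (minus strand) and that of Gpc4 at chrX:52164924-52165173 (minus strand). Each reads 5′ to 3′ along the gene's strand, and capitals mark matches on either strand to 1 of 5 motifs. These are the GC box (GGGCGG), the core of a metal response element (TGCGCNC or TGCACNC), the TATA box (TATAAA), the CCAAT box (CCAAT) and the p53 half-site.
Sulf2 first window: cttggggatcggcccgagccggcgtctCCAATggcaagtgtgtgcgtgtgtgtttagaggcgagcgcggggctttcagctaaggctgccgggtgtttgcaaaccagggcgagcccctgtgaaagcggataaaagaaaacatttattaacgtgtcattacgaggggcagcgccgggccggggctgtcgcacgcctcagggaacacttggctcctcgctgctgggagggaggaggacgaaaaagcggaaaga
Sulf2 second window: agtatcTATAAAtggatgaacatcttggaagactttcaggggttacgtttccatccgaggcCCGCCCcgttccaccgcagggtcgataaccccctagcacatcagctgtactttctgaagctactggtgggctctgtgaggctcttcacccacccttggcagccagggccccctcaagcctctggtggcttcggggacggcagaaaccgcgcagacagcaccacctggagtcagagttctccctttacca
Sdc4: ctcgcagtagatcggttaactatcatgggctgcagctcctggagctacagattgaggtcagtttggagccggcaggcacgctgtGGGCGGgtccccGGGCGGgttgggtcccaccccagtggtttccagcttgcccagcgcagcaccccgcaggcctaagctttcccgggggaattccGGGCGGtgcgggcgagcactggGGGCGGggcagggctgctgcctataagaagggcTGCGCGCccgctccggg
Gpc4: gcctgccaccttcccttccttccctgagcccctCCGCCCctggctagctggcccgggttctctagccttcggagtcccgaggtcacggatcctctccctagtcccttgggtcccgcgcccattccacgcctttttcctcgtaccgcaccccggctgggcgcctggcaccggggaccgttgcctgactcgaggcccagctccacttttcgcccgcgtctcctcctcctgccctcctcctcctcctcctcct

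The first Sulf2 window held 1 CCAAT box, at bases -223 to -219 from the start. The second held 1 GC box at -189 to -184 and 1 match to the TATA box letters at -244 to -239. Sdc4 held 4 GC boxes together with 1 metal response core that ends 11 bases before the start. Gpc4 held 1 GC box. None of these 4 windows had a match to the p53 half-site, which says only that its letters are not in these bases. The windows of Sdc1 and Gpc3, not shown, held 3 GC boxes and 1 CCAAT box each, and that of Gpc3 also 1 p53 half-site. Over 32536 promoter windows of this length, 33.0% held a GC box, 21.5% a metal response core, 12.3% a TATA box, 33.8% a CCAAT box and 7.12% a p53 half-site. The share of G and C was 60.0% and 57.2% in the Sulf2 windows, 68.0% in Sdc4 and 68.4% in Gpc4, against a median of 52.4%. A match is a description of the letters and no evidence of binding.

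Among the syndecans, Sdc3 and Sdc1 were highest in Ind-8, and Sdc2 and Sdc4 were lowest in tI-3. Sdc3, whose core protein is best known from neurons and muscle precursors, had log2 levels of 7.79, 7.45 and 7.54 in Ind-8, 7.06, 6.68 and 6.78 in Con-3, and 7.27 and 7.35 in tI-3. The 3 lines did not overlap, and their order was that of Sulf2: Ind-8, tI-3, Con-3. The Ind-8 level exceeded that of Con-3 by 0.75 ± 0.12 (SE), or 1.69-fold. The steps to tI-3 were smaller, with Ind-8 higher than tI-3 by 0.29 ± 0.14 and tI-3 higher than Con-3 by 0.47 ± 0.14. The Ind-8 minus tI-3 step was 0.19 without Ind-8 replicate 1 and 0.12 when the arrays were quantile-normalized again, so its size depended on both. Sdc1, the main syndecan of epithelia and plasma cells, had the same order in a narrow range. Its levels were 8.81, 8.71 and 8.74 in Ind-8, 8.49, 8.48 and 8.42 in Con-3, and 8.52 and 8.53 in tI-3. The lines did not overlap, yet the differences were 0.29 ± 0.08 between Ind-8 and Con-3, 0.23 ± 0.09 between Ind-8 and tI-3 and 0.06 ± 0.09 between tI-3 and Con-3. When the arrays were quantile-normalized again, the last 2 of these became 0.08 and 0.19, so that the place of tI-3 between the other lines depended on this scaling.

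Sdc4, which sits in focal adhesions and acts with integrins on fibronectin, set tI-3 apart. It had log2 levels of 9.27, 8.91 and 8.89 in Ind-8, 9.07, 8.93 and 8.95 in Con-3, and 8.42 and 8.48 in tI-3. Ind-8 and Con-3 overlapped, with a difference of 0.04 ± 0.11, and both tI-3 arrays were under all 6 others. Ind-8 was higher than tI-3 by 0.58 ± 0.13, or 1.49-fold, and the tI-3 minus Con-3 difference was -0.53 ± 0.13. Sdc2, the syndecan common in cells of mesenchymal origin, had levels of 10.29, 10.53 and 10.37 in Ind-8, 10.37, 10.04 and 10.08 in Con-3, and 9.94 and 9.77 in tI-3. Its order was Ind-8, Con-3, tI-3, and only the first pair overlapped. The Ind-8 level exceeded that of tI-3 by 0.54 ± 0.13, and the tI-3 minus Con-3 difference was -0.31 ± 0.13.

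The glypicans fell into a pair that was low in tI-3 and a pair in which the lines overlapped. Gpc6 had log2 levels of 6.79, 7.09 and 6.84 in Ind-8, 7.25, 6.98 and 6.90 in Con-3, and 5.76 and 5.26 in tI-3. Ind-8 and Con-3 overlapped, and both tI-3 arrays lay under all 6 others. Ind-8 was higher than tI-3 by 1.39 ± 0.17, or 2.63-fold, and the tI-3 minus Con-3 difference was -1.53 ± 0.17, a 2.89-fold difference. The tI-3 replicates stood further apart than those of the other lines, and the Ind-8 minus tI-3 difference was 1.65 without tI-3 replicate 1 and 1.14 without tI-3 replicate 2. Within the arrays with high hybridization controls, Gpc6 differed between tI-3 and Con-3 by -1.39.

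Gpc4, a glypican of progenitor cells in several tissues, had the same shape at a smaller size. Its log2 levels were 9.31, 9.65 and 9.70 in Ind-8, 9.29, 9.28 and 9.50 in Con-3, and 8.51 and 8.33 in tI-3. Ind-8 and Con-3 overlapped, with a difference of 0.19 ± 0.12, and both tI-3 arrays were the lowest of the 8. Ind-8 was higher than tI-3 by 1.13 ± 0.13, or 2.19-fold, and the tI-3 minus Con-3 difference was -0.94 ± 0.13, a 1.92-fold difference. It was -1.08 within the arrays with high hybridization controls. For both glypicans this value rests on Con-3 replicate 3 alone, the array that stood apart in its 18S level. The part of the control level in the low tI-3 values was not tested.

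Gpc1 and Gpc3 did not separate the lines. Gpc1, the glypican found in most adult tissues, ranged from 8.38 to 8.86 in Ind-8, from 8.44 to 8.84 in Con-3 and from 8.80 to 8.82 in tI-3. Its differences were 0.03 ± 0.14 between Ind-8 and Con-3, -0.16 ± 0.15 between Ind-8 and tI-3 and 0.19 ± 0.15 between tI-3 and Con-3. With the hybridization-control block, the last 2 were -0.42 and 0.37. Gpc3, a glypican of embryonic tissues whose loss causes overgrowth, ranged from 4.51 to 4.91 in Ind-8, from 4.76 to 4.92 in Con-3 and from 4.67 to 4.93 in tI-3. All of these values lie near the 25th percentile of 4.30, where an array separates levels poorly. Over all 8 arrays, the order of the lines was within the spread of the arrays for both genes.

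**Figure D2:**
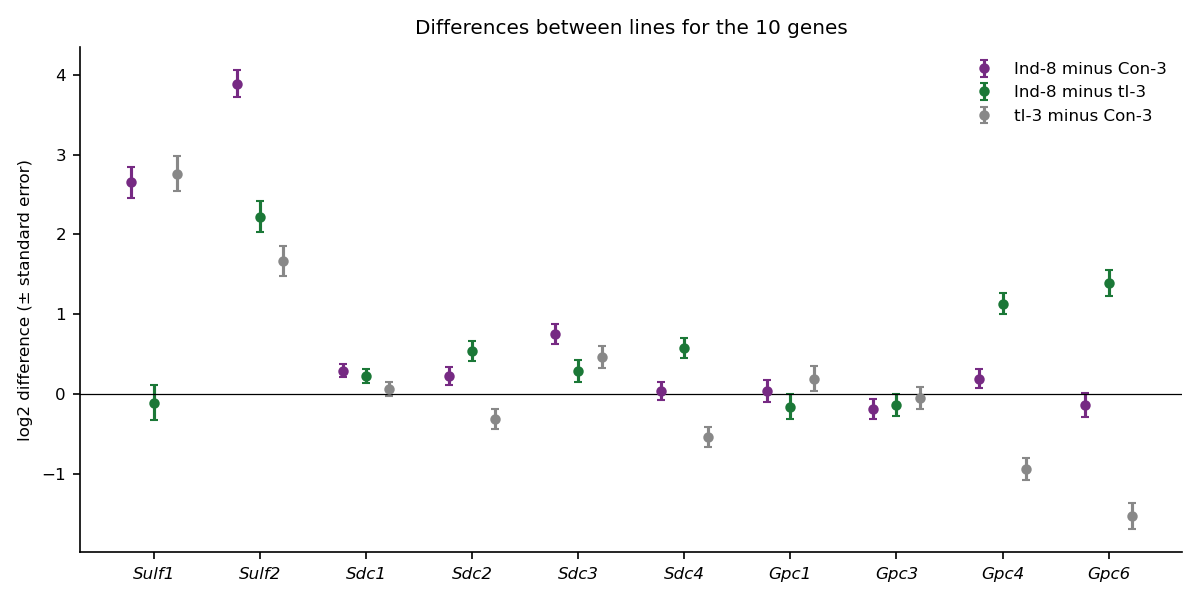
Log2 difference between lines for the 10 genes, with the standard error of the limma fit as the bar, for Ind-8 minus Con-3, Ind-8 minus tI-3 and tI-3 minus Con-3. The Ind-8 minus Con-3 differences reach at least 3.89 for Sulf2, whose Con-3 level may be background, and the tI-3 minus Con-3 differences run from 2.76 for Sulf1 to -1.53 for Gpc6.

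Side by side, the 3 comparisons share arrays, so they are given each with its own values. Ind-8 against Con-3 sets the asymmetric state against a symmetric one without p53. There, 4 of 10 members passed the limma threshold (adjusted p under 0.05 over all probe sets), Sulf1, Sulf2, Sdc1 and Sdc3, all higher in Ind-8. Of all probe sets, 10.9% were called higher and 11.0% lower in that comparison. The members' median difference was 0.21, and that of all probe sets was -0.058. Since this contrast chose the members, nothing is read from the count.

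Ind-8 against tI-3 sets the asymmetric state against a symmetric one in which p53 is also expressed. Here 5 of 10 members were called, Sulf2, Sdc2, Sdc4, Gpc4 and Gpc6, all higher in Ind-8, with 15.6% of all probe sets called higher and 15.5% lower. The members' median difference was 0.41, beside -0.061 for all probe sets. In tI-3 against Con-3, which compares the symmetric states, Sulf1, Sulf2 and Sdc3 were called higher in tI-3 and Sdc4, Gpc4 and Gpc6 lower, beside 10.2% and 15.1% of all probe sets. The members' median was 0.0049, beside 0.036 for all probe sets. Nothing is read from these counts either, since the values of all 3 lines were known when the family was chosen.

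These counts changed with single arrays, all among the syndecans. In Ind-8 against Con-3, the Sdc1 call ended without Ind-8 replicate 1 (difference 0.26), Ind-8 replicate 3 (0.30), Con-3 replicate 2 (0.30) or Con-3 replicate 3 (0.27). In Ind-8 against tI-3, the Sdc2 call ended without tI-3 replicate 2 (0.45). In tI-3 against Con-3, the Sdc3 call ended without Con-3 replicate 2 (0.39), Con-3 replicate 3 (0.44), tI-3 replicate 1 (0.51) or tI-3 replicate 2 (0.43), and the Sdc4 call without tI-3 replicate 1 (-0.50) or tI-3 replicate 2 (-0.56). With the hybridization-control block, 3 members were called in Ind-8 against Con-3, where the Sdc1 call ended (0.27), and 2 in Ind-8 against tI-3, where those of Sdc2 (0.41), Sdc4 (0.52) and Gpc6 (1.18) ended. In tI-3 against Con-3 it left 4, and the calls of Sdc3 (0.53) and Sdc4 (-0.50) ended.

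The enzymes around the sulfatases come first among the other genes of the pathway, which were taken from 14 lists by textbook function with 125 of 131 genes measured. In either direction, 21.9% of all probe sets were called in Ind-8 against Con-3, 31.1% in Ind-8 against tI-3 and 25.4% in tI-3 against Con-3. Nothing particular to a list is read from its counts below, those of the cell type markers included. Sumf1 makes the formylglycine residue that every sulfatase needs for activity, and Sumf2 is its paralog. Sumf1 had log2 levels of 9.17, 9.28 and 8.69 in Ind-8, 8.59, 8.31 and 7.96 in Con-3, and 8.45 and 8.20 in tI-3. The Ind-8 arrays lay above all others. It was higher in Ind-8 than in Con-3 by 0.76 ± 0.18 (adjusted p = 0.013, limma) and than in tI-3 by 0.72 ± 0.20 (adjusted p = 0.024, limma). The first call ended without Ind-8 replicate 2 (adjusted p = 0.0603) and without Con-3 replicate 3 (0.0507). For Ind-8 against Con-3 the latter gives the same values as the hybridization-control block, so they are 1 check. The second ended without Ind-8 replicate 1 (0.0691), Ind-8 replicate 2 (0.0754), tI-3 replicate 1 (0.0516) or tI-3 replicate 2 (0.169), when quantile-normalized again (0.0541) and with the block (0.733). Sumf2 was higher in Ind-8 than in Con-3 by 0.45 ± 0.09 (adjusted p = 0.0076, limma) and than in tI-3 by 0.61 ± 0.11 (adjusted p = 0.0026, limma). All 3 Ind-8 arrays lay above all others. The Sumf2 call against tI-3 ended with the block (adjusted p = 0.222, limma). Both genes thus had their highest level in the line where Sulf2 was highest, and the tI-3 and Con-3 arrays overlapped in each. Sulfatase activity was not measured.

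The enzymes that add the sulfate groups were called in both directions. Of 15 measured genes of heparan sulfate sulfation and epimerization, 1 was higher and 1 lower in Ind-8 than in Con-3, 1 was higher and 4 lower in Ind-8 than in tI-3, and 4 were higher and 1 lower in tI-3 than in Con-3. In either direction, 21.9%, 31.1% and 25.4% of all probe sets were called in these comparisons, and nothing particular to the list is read from its counts. Its median difference was -0.063, -0.053 and -0.020. Ndst1, which starts modification by N-sulfation, had log2 levels of 7.78, 7.91 and 7.86 in Ind-8, 7.95, 8.09 and 8.14 in Con-3, and 8.74 and 8.82 in tI-3. Hs2st1, the 2-O-sulfotransferase, had 8.67, 8.65 and 8.69 in Ind-8, 8.85, 8.78 and 8.89 in Con-3, and 9.60 and 9.67 in tI-3. Both tI-3 arrays were above all others for each gene. The Ind-8 minus tI-3 difference was -0.93 ± 0.10 for Ndst1 (adjusted p = 1.9e-04, limma) and -0.96 ± 0.09 for Hs2st1 (adjusted p = 9.0e-05, limma), and tI-3 was higher than Con-3 by 0.72 and 0.79. Hs6st2 adds the 6-O-sulfate that the Sulf enzymes remove, and it was lower in tI-3 than in Con-3 (difference -0.72, adjusted p = 0.0064, limma), a call that ended without tI-3 replicate 2 (adjusted p = 0.0552). Hs6st1 and Hs6st3, named after their values were seen, are also 6-O-sulfotransferases. Hs6st1 had means of 7.46 in Ind-8, 7.56 in Con-3 and 7.52 in tI-3 and was not called in any comparison. Hs6st3, dim with means of 4.26, 4.33 and 4.65, was lower in Ind-8 than in tI-3 (difference -0.39, adjusted p = 0.028, limma). Its tI-3 minus Con-3 difference of 0.32 was not called (adjusted p = 0.062, limma). Glce, the epimerase, was lower in Ind-8 than in Con-3 (difference -0.42, adjusted p = 0.0061, limma).

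Sulfation draws on the donor PAPS. Papss1 and Papss2 both make it. Papss1, named after its values were seen, was the brighter, with means of 9.52 in Ind-8, 9.77 in Con-3 and 9.66 in tI-3. It was not called in any comparison. Papss2 had log2 levels of 6.99 ± 0.24 (SD, n = 3) in Ind-8, 5.89 ± 0.13 (SD, n = 3) in Con-3 and 5.43 ± 0.07 (SD, n = 2) in tI-3, with no overlap of the lines. It was higher in Ind-8 than in Con-3 by 1.10 ± 0.13 (adjusted p = 2.5e-04, limma) and than in tI-3 by 1.56 ± 0.14 (adjusted p = 7.1e-05, limma). The sulfate transporter Slc26a2 was lower in Ind-8 than in Con-3 (difference -0.47, adjusted p = 0.010, limma) and lower in tI-3 than in Con-3 (difference -0.63, adjusted p = 0.0038, limma). Of 6 measured genes of donor supply, 3 were lower in tI-3 than in Con-3: Papss2, Slc26a2 and Bpnt1. Bpnt1 clears the spent donor (difference -0.64, adjusted p = 0.0016, limma). For Papss2 that difference was -0.46 (adjusted p = 0.036, limma), and the call ended without Ind-8 replicate 2 (0.0502), Con-3 replicate 1 (0.077), Con-3 replicate 3 (0.0874), tI-3 replicate 1 (0.0902) or tI-3 replicate 2 (0.189). It also ended with the replicate number (0.0556) or the hybridization-control level (0.0786) as a block. The median difference of the list was -0.053 in Ind-8 against Con-3, 0.23 in Ind-8 against tI-3 and -0.29 in tI-3 against Con-3.

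**Figure D3:**
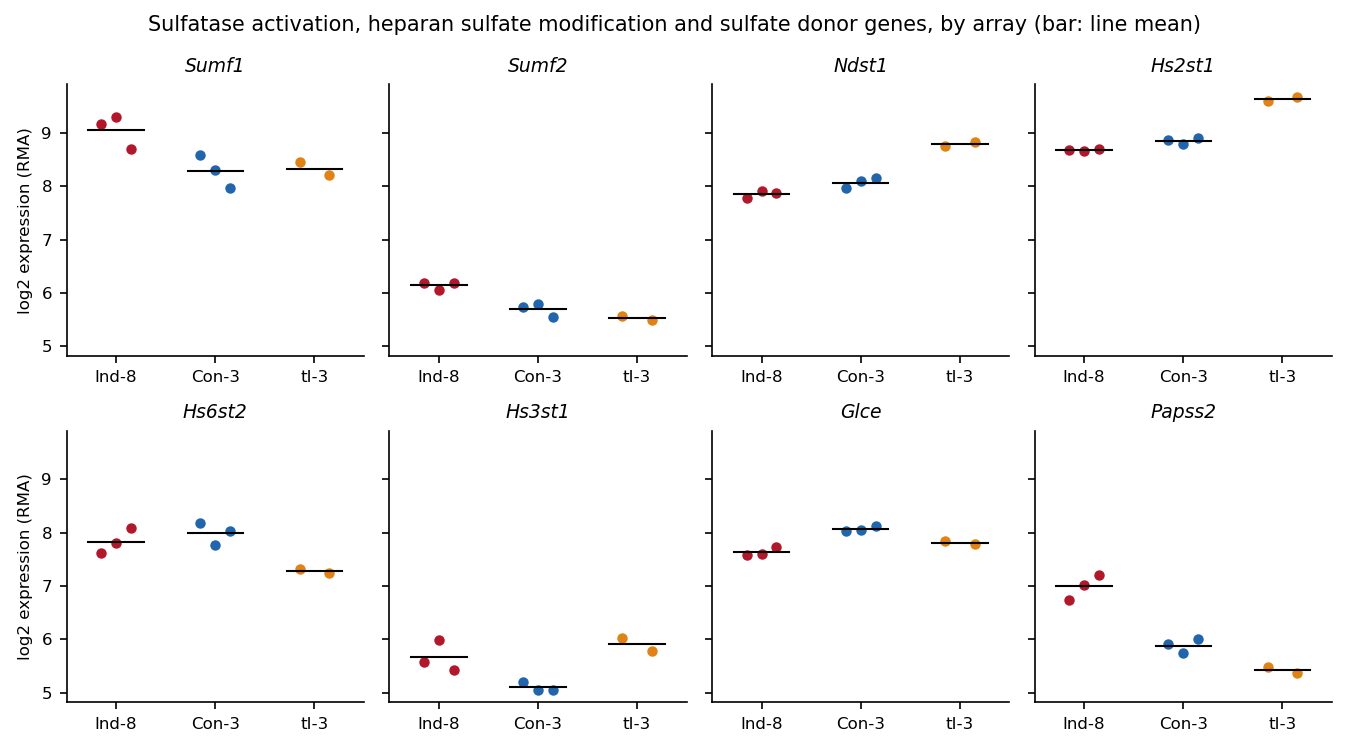
Log2 expression (RMA) on each array, by line, with a bar at the line mean. The genes are Sumf1, its paralog Sumf2, and genes that modify heparan sulfate or supply the sulfate donor. Ndst1 and Hs2st1 are highest on the 2 tI-3 arrays, and Sumf1, Sumf2 and Papss2 are highest on the 3 Ind-8 arrays.

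The chains themselves are built by enzymes of the linker and of elongation, and limma's counts for them stand beside 21.9%, 31.1% and 25.4% of all probe sets called in either direction in the 3 comparisons. Of 10 measured genes, limma called 0 in Ind-8 against Con-3 and 0 in Ind-8 against tI-3, and at an unadjusted p under 0.05 it gave 2 higher and 3 lower in the first comparison and 0 in the second. The rank product test called 0 in both. In tI-3 against Con-3, Fam20b, a kinase of the linker, was lower (difference -0.39, adjusted p = 0.020, limma), and it was the 1 gene called there. That call ended without tI-3 replicate 1 (0.12) or tI-3 replicate 2 (0.0589), when quantile-normalized again (0.107) and with the hybridization-control block (0.103). Lysosomal breakdown of heparan sulfate had 4 of 9 genes higher in Ind-8 than in Con-3, where the median of the list was 0.088. It had 3 higher and 1 lower in Ind-8 than in tI-3 (median -0.039), and 1 higher and 1 lower in tI-3 than in Con-3 (median 0.052). Among those higher in Ind-8 than in Con-3 were Hgsnat (difference 0.58, adjusted p = 0.0042, limma) and Gusb (0.46, adjusted p = 0.011, limma), enzymes that act on the ends of the chain. Naglu was also among them (0.31, adjusted p = 0.0497, limma). Its call ended without Ind-8 replicate 1 (0.133), Ind-8 replicate 2 (0.15), Con-3 replicate 1 (0.129), Con-3 replicate 3 (0.138) or either tI-3 array (0.0666 each). It also ended with 2 lines only (0.0666), a trend in the prior (0.0756), identical entries counted once (0.0508), median centring (0.0673) and the hybridization-control block (0.138). Hgsnat was also higher in Ind-8 than in tI-3 by 0.90 (adjusted p = 6.6e-04, limma), and Idua was lower (difference -0.45, adjusted p = 0.0051, limma). With the hybridization-control block both of these calls ended (0.0593 and 0.136), which does not show that the differences became smaller.

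Proteases that release syndecans from the surface were also read. Mmp14, a membrane-bound metalloprotease, was higher in Ind-8 than in Con-3 by 0.58 (adjusted p = 0.0016, limma), and Mmp2, which Mmp14 activates, was higher in Ind-8 than in tI-3 by 0.85 (adjusted p = 6.3e-04, limma). Adam10 was higher in tI-3 than in Con-3 by 0.56 (adjusted p = 0.011, limma), which ended without tI-3 replicate 1 (adjusted p = 0.0875). Of the 10 genes of shedding and release, 2 were higher in Ind-8 than in Con-3, 2 were higher and 3 lower in Ind-8 than in tI-3, and 1 was higher and 1 lower in tI-3 than in Con-3. The medians were -0.041, -0.20 and 0.20.

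Partners of the syndecans inside and outside the cell differed along more than 1 pattern. Ezr, whose product ezrin ties syndecan tails to actin, had means of 11.53 in Ind-8, 10.02 in Con-3 and 11.57 in tI-3, which is the order of Sulf1 with Con-3 apart. It was higher in Ind-8 than in Con-3 by 1.51 ± 0.10 (adjusted p = 1.4e-05, limma) and higher in tI-3 than in Con-3 by 1.55 ± 0.12 (adjusted p = 1.9e-05, limma). Prkca, the kinase that Sdc4 binds, had the opposite order, with differences of -0.56 (adjusted p = 0.0030, limma) and -0.57 (adjusted p = 0.0039, limma). Tiam1, an activator of Rac that binds syndecan tails, was higher in Ind-8 than in tI-3 by 1.37 (adjusted p = 2.9e-04, limma), and Fn1, fibronectin, was higher in Ind-8 than in Con-3 by 0.70 (adjusted p = 3.2e-04, limma). Of 11 partners, 3 were higher and 1 lower in Ind-8 than in Con-3 (median 0.082), 3 were higher in Ind-8 than in tI-3 (median 0.092), and 2 were higher and 3 lower in tI-3 than in Con-3 (median -0.19).

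Among the other core proteins that carry heparan sulfate, Gpc2 and Gpc5 lay under the 25th percentile in every line, with means from 3.41 to 3.66. Of 7 matrix and part-time proteoglycans, 2 were higher in Ind-8 than in Con-3, 2 were higher in Ind-8 than in tI-3, and 3 were higher and 1 lower in tI-3 than in Con-3. Their medians were 0.055, 0.038 and -0.29. Nrp1, a coreceptor of vascular growth factors, was higher in tI-3 than in Con-3 by 0.85 (adjusted p = 0.0018, limma).

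Ligands and receptors that use heparan sulfate also differed between the lines. Ptn, the growth factor pleiotrophin, had means of 6.67 in Ind-8, 8.34 in Con-3 and 4.81 in tI-3. Its tI-3 minus Con-3 difference, a measured -3.53 (SE 0.34, adjusted p = 9.0e-05, limma), went the way of Gpc4 and Gpc6. The tI-3 values of 4.97 and 4.64 lie near the 25th percentile of 4.30, so the size of that difference is read as a lower bound. In Ind-8 against Con-3 the Ptn difference was -1.67 ± 0.30 (adjusted p = 0.0034, limma). Pdgfb was lower than in Con-3 in both other lines, by a log2 difference of -1.12 in Ind-8 (adjusted p = 4.3e-05, limma) and -1.11 in tI-3 (adjusted p = 6.8e-05, limma). Tgfb1 was lower in tI-3 than in Con-3 (difference -1.15, adjusted p = 0.0014, limma). Tgfb2 was higher in Ind-8 than in tI-3 by 1.06 (adjusted p = 0.0023, limma). That call ended with the hybridization-control block (0.0614), which does not show that the difference became smaller. Fgf2 went the other way from Pdgfb, higher than in Con-3 by 1.25 in Ind-8 (adjusted p = 0.013, limma) and by 1.07 in tI-3 (adjusted p = 0.040, limma). Its Ind-8 call ended without Ind-8 replicate 2 (0.0607), without Con-3 replicate 3 (0.0555) or with the hybridization-control block (0.0555). Its tI-3 call ended without Ind-8 replicate 1 (0.0535), Con-3 replicate 2 (0.119), Con-3 replicate 3 (0.0994), tI-3 replicate 1 (0.186) or tI-3 replicate 2 (0.111), with 2 lines only (0.0539) and with that block (0.0833). Of 16 ligands, 1 was higher and 2 lower in Ind-8 than in Con-3 (median -0.038), 3 were higher and 3 lower in Ind-8 than in tI-3 (median 0.013), and 2 were higher and 4 lower in tI-3 than in Con-3 (median -0.011).

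The fibroblast growth factor receptors Fgfr1 and Fgfr2 went opposite ways in tI-3. Fgfr1 had means of 8.29 in Ind-8, 7.62 in Con-3 and 6.73 in tI-3, and it was higher in Ind-8 than in tI-3 by 1.57 ± 0.14 (adjusted p = 6.8e-05, limma). Fgfr2 had means of 8.19 in Ind-8, 7.68 in Con-3 and 8.94 in tI-3, and it was higher in tI-3 than in Con-3 by 1.26 ± 0.11 (adjusted p = 6.5e-05, limma). Both were higher in Ind-8 than in Con-3, Fgfr1 by 0.67 (adjusted p = 0.0038, limma) and Fgfr2 by 0.51 (adjusted p = 0.0056, limma). Of 5 receptors, these 2 were called higher in Ind-8 than in Con-3, 1 was higher and 1 lower in Ind-8 than in tI-3, and 2 were higher and 1 lower in tI-3 than in Con-3. The medians of the receptors were 0.26, -0.20 and -0.010. Among 10 genes of feedback and response, 3 were higher in Ind-8 than in tI-3 (median 0.23) and 3 lower in tI-3 than in Con-3 (median -0.18). Etv5 and Etv4, transcription factors that the receptors induce, were lower in tI-3 than in Con-3 by differences of -1.51 (adjusted p = 1.4e-04, limma) and -1.14 (adjusted p = 0.0013, limma). In Ind-8 against Con-3, 1 of the 10 was higher and 1 lower (median -0.034). These were Dusp6 (difference 0.92, adjusted p = 0.028, limma) and Spry3 (-0.54, adjusted p = 0.0056, limma). Dusp6 was also higher in Ind-8 than in tI-3 by 1.35 (adjusted p = 0.0071, limma). Both Dusp6 calls ended with the hybridization-control block. Its tI-3 minus Con-3 difference of -0.43 was not called (adjusted p = 0.31, limma).

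Chondroitin and dermatan sulfate, the sister chains, were read for comparison. Of 15 enzymes, 6 were higher and 1 lower in Ind-8 than in Con-3, 7 were higher and 2 lower in Ind-8 than in tI-3, and 3 were higher and 4 lower in tI-3 than in Con-3. Of all probe sets, 10.9%, 15.6% and 10.2% were called higher in these comparisons and 11.0%, 15.5% and 15.1% lower. Nothing is read from the counts of these enzymes. Their medians were 0.25, 0.34 and 0.089. Dse, the dermatan sulfate epimerase, was higher in Ind-8 than in tI-3 by 1.61 ± 0.17 (adjusted p = 1.7e-04, limma), and Csgalnact1, which starts chondroitin chains, differed between tI-3 and Con-3 by -1.48 (adjusted p = 3.9e-04, limma). Of 7 core proteins, 1 was higher in Ind-8 than in Con-3 (median -0.079), 1 was higher and 1 lower in Ind-8 than in tI-3 (median -0.20), and 1 was higher and 1 lower in tI-3 than in Con-3 (median 0.12). Vcan, the large matrix proteoglycan versican, was lower in tI-3 than in Con-3 (difference -1.17, adjusted p = 4.7e-05, limma), as Gpc4 and Gpc6 were.

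**Figure D4:**
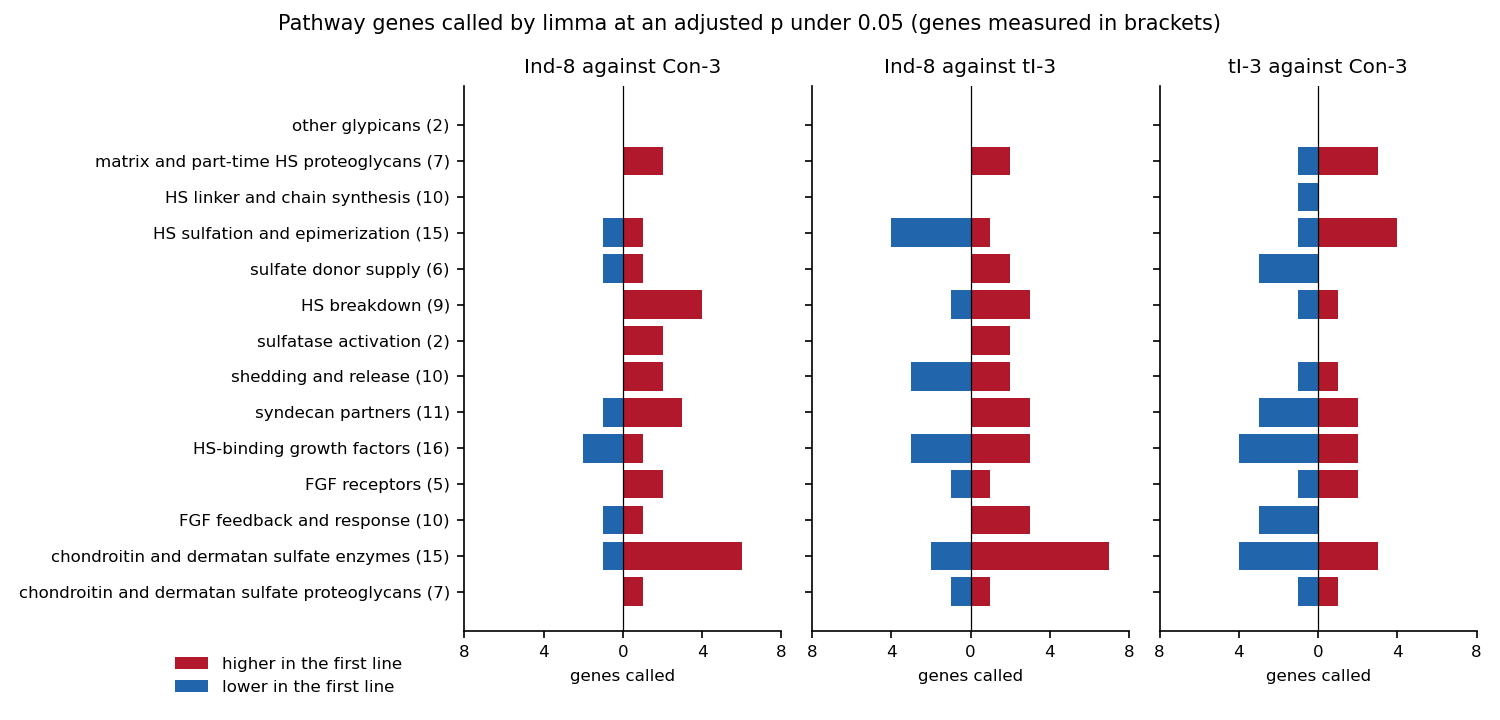
Number of genes called by limma at an adjusted p under 0.05 in each of the 14 pathway lists, higher to the right and lower to the left, for the 3 comparisons. Over all lists, 26 genes were higher and 7 lower in Ind-8 than in Con-3, 30 higher and 15 lower in Ind-8 than in tI-3, and 19 higher and 24 lower in tI-3 than in Con-3. With the hybridization-control block, the total was 8 in place of 45 in Ind-8 against tI-3 and 26 in place of 43 in tI-3 against Con-3.

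Over the 125 pathway genes together, 26 were higher and 7 lower in Ind-8 than in Con-3, with a median difference of 0.025 beside -0.058 for all probe sets. In Ind-8 against tI-3, 30 were higher and 15 lower, with a median of 0.029 beside -0.061. Without tI-3 replicate 1 the total of 45 was 27, and without tI-3 replicate 2 it was 23. It was 8 with the hybridization-control block and 8 by the rank product test. In tI-3 against Con-3, 19 were higher and 24 lower, with a median of 0.019 beside 0.036, and the total of 43 was 27 without tI-3 replicate 1 and 26 without tI-3 replicate 2. With that block it was 26, and by the rank product test 10. The total of 33 in Ind-8 against Con-3 was 6 by the rank product test. The shares of all probe sets called stand beside the members' counts, and nothing particular to the pathway is read from these numbers.

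Cell type markers were read beside the members that were low in tI-3. Of 12 fibroblast markers, 10 were above the 25th percentile, with Vim the brightest, whereas Thy1 and Lum lay near or under it. Their summed level, on a log2 scale, was 15.43, 15.59 and 15.57 in Ind-8, 15.22, 15.35 and 15.36 in Con-3, and 15.26 and 15.07 in tI-3. Of 6 muscle markers, 5 were above that percentile, with Acta2 the brightest and Myh11 under it. Their summed level was 14.71, 14.59 and 14.86 in Ind-8, 14.76, 14.47 and 14.71 in Con-3, and 13.36 and 13.39 in tI-3. It was thus low on the arrays where Sdc2, Sdc4, Gpc4 and Gpc6 were lowest. As a sum of linear values it rests mostly on Acta2. Myh11, Des and Myod1 were not lower in tI-3 than in Con-3, with differences of 0.28, 0.18 and 0.07, none of them called. By limma, 3 muscle markers were lower in tI-3 than in Con-3, and 3 were higher and 1 lower in Ind-8 than in tI-3. Of the fibroblast markers, 2 were higher and 5 lower in tI-3 than in Con-3, 6 were higher and 1 lower in Ind-8 than in tI-3, and 2 were higher and 1 lower in Ind-8 than in Con-3. Chosen after their values were seen, Cnn1 (difference -3.37), Tagln (-2.75) and Col3a1 (-2.68) had the largest differences of these lists in tI-3 against Con-3. The part of such cell states in the levels of Sdc2, Sdc4, Gpc4 and Gpc6 was not tested. Fewer cells with a gene and less RNA per cell cannot be told apart.

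Markers of other cells were mostly dim. Of 6 epithelial markers, 2 were above the 25th percentile, with Krt5 the brightest, and their summed level ran from 6.65 to 7.18 over the arrays. Of these, limma called 0 in every comparison and the rank product test 0, and at an unadjusted p under 0.05 limma gave 2 lower in Ind-8 than in tI-3 and 2 higher in tI-3 than in Con-3. Of 5 endothelial markers, only Kdr was above it, and the summed level ran from 6.79 to 7.45. Kdr had means of 5.84 in Ind-8, 6.16 in Con-3 and 6.60 in tI-3. It was the 1 endothelial marker called by limma: lower in Ind-8 than in Con-3 and than in tI-3, and higher in tI-3 than in Con-3. Of 5 blood cell markers, 3 were above the 25th percentile, with Csf1r the brightest. Ptprc, which marks all white blood cells, had means of 3.50 to 3.66. Their summed level was 7.06 to 7.09 in Ind-8, 7.10 to 7.24 in Con-3, and 7.49 and 7.44 in tI-3. Of them, 3 were lower in Ind-8 than in tI-3 and 2 higher in tI-3 than in Con-3.

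Last, the nearest profiles were sought among 16105 named profiles, each centred on its own mean, by the Euclidean distance over the 8 arrays. Nearest to Sulf2 were Eda2r (distance 0.457), Cdkn1a (0.486) and Ephx1 (1.02). Sulf2, Eda2r and Cdkn1a all stand on the study's list of genes selected for this pattern on these arrays. By the authors' detection calls these genes were absent in Con-3, so their Con-3 values in the distances may be background. Eda2r, a receptor of the tumor necrosis factor family, had levels of 7.60, 8.03 and 7.63 in Ind-8, 3.91, 4.08 and 4.07 in Con-3, and 5.63 and 5.13 in tI-3. For Sulf1 the nearest profiles were Runx1t1 (1.13), Nbea (1.22) and Ass1 (1.32). Gpc4 lay nearest to Rcn3 (0.191), Irgm1 (0.221) and Tgfb2 (0.289), the last a ligand of the pathway lists. Gpc6 lay nearest to Lmo7 (0.301), Nat2 (0.359) and Fyn (0.371), Sdc4 to Top1mt (0.152), Cdc14b (0.153) and Mrpl19 (0.205), and Sdc2 to Crbn (0.180), Rab1a (0.195) and Serinc1 (0.201). For Gpc1, whose lines overlapped, the nearest were Snrnp35 (0.241), Lhx6 (0.246) and Cep120 (0.248). A member with small differences lies near many profiles, so the distances are not compared between members.

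**Figure D5:**
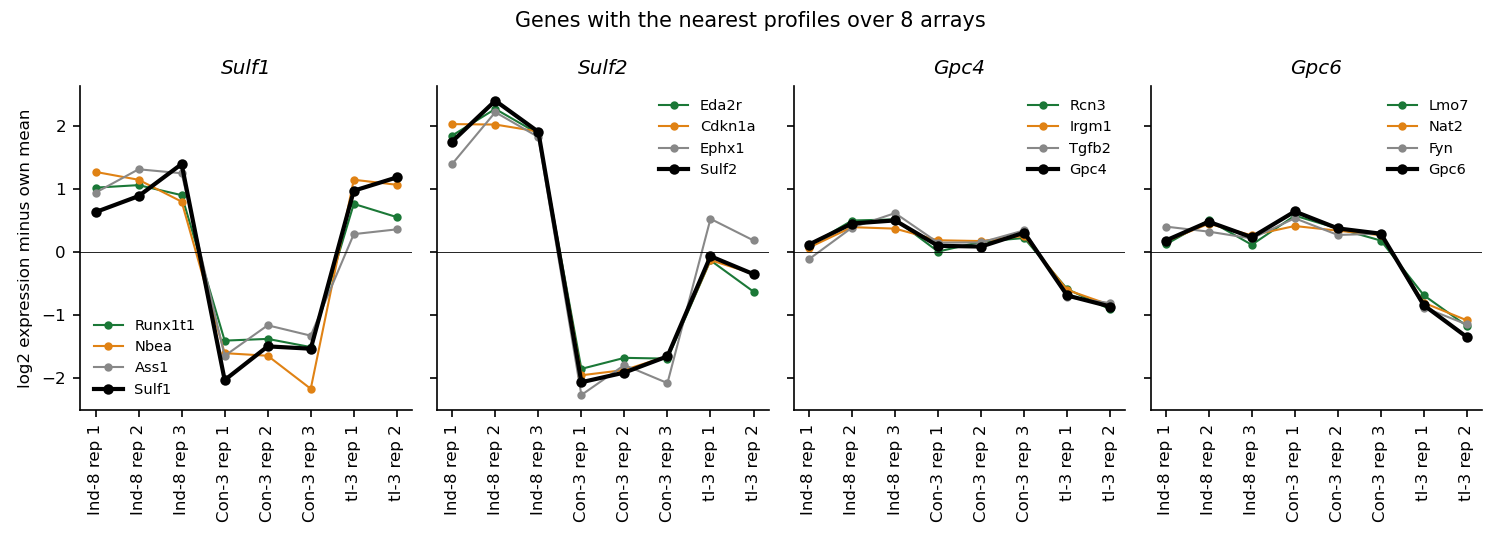
Log2 expression minus the gene's own mean over the 8 arrays, for Sulf1, Sulf2, Gpc4 and Gpc6 in black and the 3 nearest profiles of each in colour. The profiles of Eda2r and Cdkn1a run close to Sulf2 on all 8 arrays, and Rcn3 and Lmo7 run close to Gpc4 and Gpc6.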

How the data were processed

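Total RNA of 8 cultures was read on Affymetrix mouse arrays, 3 of Ind-8, 3 of Con-3 and 2 of tI-3. The deposited values are log2 expression values that the authors made by RMA after regrouping probes into sets by RefSeq transcript. They were used without further normalization, and the Affymetrix controls were not tested. Symbols came from a RefSeq table and matched 18294 of 22523 probe sets (81.2%). limma 3.58.1 in R 4.3.3 was fitted with 1 mean per line and its default prior, p-values were adjusted by Benjamini-Hochberg over all probe sets, and calls were made under an adjusted p of 0.05. Python 3.11.15, numpy 2.4.6, pandas 2.3.3 and matplotlib 3.10.9 did the rest. A gene was read by its curated transcript with the highest mean. Named genes are the members, up to 4 called genes with the largest difference per list and comparison, all genes of lists of up to 2, the label checks and the nearest profiles. Marker genes were named after their values were seen, for their brightness or dimness or the size or direction of their difference. Papss1, Hs6st1 and Hs6st3 were also named after their values were seen. The members and lists were chosen with earlier results of these data known. Xylt1, Hs3st4, Slc35b2, Hpse2, Spred1, Chst13 and Cd68 were not used here, and Impad1 was read as Bpnt2. The alternatives were 2 lines only, replicate number or hybridization-control level as a block, a trend in the prior, a low-value filter, identical entries counted once, a gene's distinct profiles averaged, quantile normalization again, median centring, each array left out, a minimum log2 difference of 1 and the rank product test (100 permutations, pfp under 0.05). The methods were tested on simulated data.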

Additional observations from a re-analysis of the deposited data

How the results depend on the processing

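The counts of probe sets called were 4942 in Ind-8 against Con-3, 7009 in Ind-8 against tI-3 and 5715 in tI-3 against Con-3, and the cause of each shift below was not tested unless the setting's own construction gives it. With the hybridization-control block, the counts were 708 in Ind-8 against tI-3 and 3066 in tI-3 against Con-3, and the pathway counts fell from 45 to 8 and from 43 to 26. That block leaves no level with arrays of both Ind-8 and tI-3. In Ind-8 against Con-3 it gives the same values as leaving out Con-3 replicate 3, with 3650 probe sets called in each. In tI-3 against Con-3 its differences rest on Con-3 replicate 3 alone among the Con-3 arrays. The rank product test called 825, 458 and 520 probe sets, and 6, 8 and 10 pathway genes. A minimum log2 difference of 1, a stricter rule by construction, left 464, 681 and 735 probe sets, and 6, 11 and 11 pathway genes. Leaving out 1 array gave 3493 to 4637 probe sets in Ind-8 against Con-3, 2781 to 7261 in Ind-8 against tI-3 and 3093 to 5625 in tI-3 against Con-3, the lowest of the last 2 without tI-3 replicate 2. Pathway genes ranged from 23 to 47 in Ind-8 against tI-3 and from 26 to 42 in tI-3 against Con-3, the lowest again without tI-3 replicate 2. A line left with 1 array is assumed to vary like the others.

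Replicate numbers were not shown to pair the cultures: after the line mean was taken out, Pearson's r between arrays of the same number was 0.27, 0.0093 and 0.205 for replicate 1, 0.0286, -0.225 and 0.0424 for replicate 2 and 0.381 for replicate 3. With the replicate block, limma called 5382, 8341 and 6376 probe sets, and 36, 54 and 43 pathway genes. The other settings kept all of these counts within 1.5 times the reported ones.

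Of 500 values of the 30 member differences under other settings, 12 moved by more than the spread within lines, and none of the 15 called differences changed sign. The rank product test called 2, 2 and 3 members, and the minimum difference left 2, 3 and 3. Of 109 calls of named pathway and label genes, 51 were kept in every limma fit without a minimum difference, and the hybridization-control block ended 51. The rank product test and the minimum difference are not in that count. Signal near the dim end limits Gpc3.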
